A study of Homo sapiens with 2 samples.

Results

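FOXO3 is a forkhead transcription factor known for promoting resistance to oxidative stress, and 5 genes are often named among its antioxidant and DNA damage targets. None of the 5 had a called FLAG-FOXO3 peak in the window set around it in U87MG cells. The SOD2 window cannot hold all listed starts of that gene. The 5 genes were SOD2, CAT, PRDX3, SEPP1 and GADD45A, chosen by name with earlier results of these data known. A peak was counted for a gene when its summit, the position of highest pileup, lay in a fixed hg19 window around that gene. No summit of the 9717 deposited peaks met this rule for any of the 5. Between 6.78% and 13.6% of genome stretches as long as these windows held a summit, so 0 of 5 is also what such stretches mostly give and says little about the group. The peaks in these windows thus give no support for naming the 5 as FOXO3 targets in these cells and do not speak against it, and they are called here the antioxidant and DNA damage genes.

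The peaks came from 1 FLAG immunoprecipitation of U87MG, a human glioblastoma cell line, and the series held 1 input library as well. In CETCh-seq the endogenous factor, here FOXO3, carries an epitope tag added by CRISPR editing, so that an antibody against the tag can pull it down. Both libraries were from cells given LY294002, a phosphoinositide 3-kinase inhibitor, and both are labelled as wild type. The labels do not say whether the tagged cells were 1 clone or a pool, or whether the input came from tagged cells. There was no untreated group, no oxidant or DNA-damaging agent and no second FLAG library. Binding was therefore measured in 1 condition, and no difference between conditions was tested.

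FOXO3 is kept in the cytoplasm when AKT phosphorylates it, and it enters the nucleus when phosphoinositide 3-kinase signalling is blocked. There it binds DNA that holds a core like GTAAACA. Superoxide made in mitochondria is turned into hydrogen peroxide by SOD2, the manganese superoxide dismutase. Hydrogen peroxide is then broken down by catalase, which CAT encodes and which sits in peroxisomes, and by PRDX3, the peroxiredoxin of mitochondria. SEPP1, now named SELENOP, encodes selenoprotein P, a secreted protein that carries selenium to tissues. GADD45A is a stress-induced protein that takes part in growth arrest and DNA repair.

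Upstream sequence is shown for SEPP1 and PRDX3 because they were the only 2 of the genes whose promoters in the table held a searched motif, and for CAT as one without a match. RefSeq promoter entries (GRCh38.p14, 250 bases before to 50 after a gene start) were matched for 4 of the 5 genes, with 4 starts for SOD2 and 1 each for CAT, PRDX3 and SEPP1. The outermost SOD2 starts are 69.0 kb apart, more than the 35 kb of the SOD2 window, so that window cannot hold all 4, and which it leaves out was not analysed here. GADD45A was not matched. Each line gives the 250 bases before the start on the strand of the gene, 5′ to 3′. Capitals mark a match to GTAAACA or CAAAACA. The SEPP1 stretch is chr5:42811893-42812142 on the minus strand, that of PRDX3 is chr10:119178813-119179062 on the minus strand, and that of CAT is chr11:34438684-34438933 on the plus strand.
SEPP1: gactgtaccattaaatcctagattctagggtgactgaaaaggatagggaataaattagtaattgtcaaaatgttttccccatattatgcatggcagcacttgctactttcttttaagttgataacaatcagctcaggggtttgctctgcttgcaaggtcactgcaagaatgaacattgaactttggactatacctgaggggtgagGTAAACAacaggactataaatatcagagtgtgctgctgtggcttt
PRDX3: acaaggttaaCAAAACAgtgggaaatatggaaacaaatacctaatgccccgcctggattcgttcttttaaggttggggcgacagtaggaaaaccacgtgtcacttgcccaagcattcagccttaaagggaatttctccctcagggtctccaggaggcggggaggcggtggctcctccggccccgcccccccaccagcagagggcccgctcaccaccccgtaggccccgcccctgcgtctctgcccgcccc
CAT: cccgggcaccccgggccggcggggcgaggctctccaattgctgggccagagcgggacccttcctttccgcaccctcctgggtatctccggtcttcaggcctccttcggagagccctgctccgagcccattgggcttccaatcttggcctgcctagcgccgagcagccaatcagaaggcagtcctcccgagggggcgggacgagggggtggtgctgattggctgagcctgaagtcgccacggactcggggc

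The SEPP1 promoter held GTAAACA on the strand of the gene, from 45 to 39 bases before the start. Searched on both strands over 300 bases, this motif was found in 3.42% of 35116 RefSeq promoters. PRDX3 held CAAAACA on its own strand, from 240 to 234 bases before the start. This motif was found in 4.92% of all promoters. It was in 1.53% of those with a GC content of 60% or more and 4.71% of those from 50% to under 60%. PRDX3, at 60.4%, stood just inside the higher class. CAT and the 4 starts of SOD2 held neither, nor the shorter TAAACA, which lies within GTAAACA and occurs in 12.3% of promoters. The GC content of the 250 bases was 39.6% for SEPP1, 60.4% for PRDX3, 68.8% for CAT and from 68.0% to 80.8% for the SOD2 starts, beside a median of 58.0% over all promoters. GTAAACA occurred in 7.15% of promoters with a GC content under 40% and in 1.53% of those at 60% or more, so the single match in SEPP1 stood in the class of promoters where it is most frequent. A match is a string of letters and not a measured site. The promoter table is in GRCh38 and the peaks are in hg19, so the 2 were not aligned by position.

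Among other genes of the same processes, taken from lists of 22 antioxidant and 16 DNA damage genes, promoters were matched for 15 of each. GTAAACA was found in 0 of 22 antioxidant promoters and 0 of 24 DNA damage promoters, beside 3.42% of all promoters. At that share, a count of 0 in so few promoters says little. TAAACA was found in 1 antioxidant promoter, that of TXNRD2, a mitochondrial thioredoxin reductase. It was in 0 DNA damage promoters, beside 12.3% of all promoters. CAAAACA was found in 1 DNA damage promoter, that of ATM, a kinase activated by DNA breaks. It was in 0 antioxidant promoters, beside 4.92% of all promoters. The GC content of the promoters in these lists was not compared, and no difference from all promoters was tested. Peaks at these genes were not counted, since no hg19 gene positions were used here.

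The windows spanned 178 kb in all and held 0 summits. The SOD2 window ran over 35 kb on chromosome 6 from 160090000 to 160125000, and 9.45% of all tiles of that length on chromosomes 1 to 22 and X held a summit. The CAT window covered 54 kb on chromosome 11 from 34450000 to 34504000, where the share was 13.6% of tiles of equal length. For PRDX3 the window was 32 kb on chromosome 10 from 120917000 to 120949000, with a share of 8.72%. SEPP1 had a window of 33 kb on chromosome 5 from 42789000 to 42822000, with a share of 8.96%. That of GADD45A was the shortest, 24 kb on chromosome 1 from 68140000 to 68164000, with a share of 6.78%.

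These shares sum to 0.47 genes with a peak, so 0 of 5 genes is close to what stretches of this length hold across the genome. At the mean density of 3.33 summits per Mb the windows would hold 0.59 summits. A count of 0 over 178 kb allows a density of up to 16.9 per Mb (the limit of 3 counts), which is above that mean. The absence of peaks is thus a statement about each window in this peak list, and the 5 together could not be told apart from the rest of the genome. With 50 kb added on each side, SOD2, CAT and GADD45A had 1 summit each and PRDX3 and SEPP1 had 0. Tiles of those lengths held a summit in 27.5% of cases for SOD2, 30.2% for CAT, 27.2% for PRDX3, 27.1% for SEPP1 and 25.8% for GADD45A, a sum of 1.4 genes. Tiles are not gene neighbourhoods, and the share for genes in general was not measured here.

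The pileup and the background bear on what could have been called in these windows. From the deposited fold and p-value of each peak, the ChIP pileup and the background used by the caller were recovered. The lowest background in the list was 3.65 tags, which 1859 peaks shared, and the smallest called pileup was 13 tags, a fold of 3.01 over that background. With backgrounds from 5 to 7.5 tags the smallest called pileup was 16 tags, and from 7.5 to 10 tags it was 21 tags. The narrowest peak was 150 bp. Peaks within 1 Mb of the windows had a median background of 6.96 tags for SOD2, 6.03 for CAT, 8.31 for PRDX3, 5.73 for SEPP1 and 4.29 for GADD45A. Those are backgrounds at peaks, and the background inside the windows was not measured. Backgrounds also varied within each neighbourhood, for PRDX3 from 3.94 to 12.8 tags, and a PRDX3 neighbour was called with 19 tags over 3.94. The smallest callable pileup inside a window is therefore not known beyond the 13 tags of the whole list, and occupancy under that was not detectable.

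**Figure D1:**
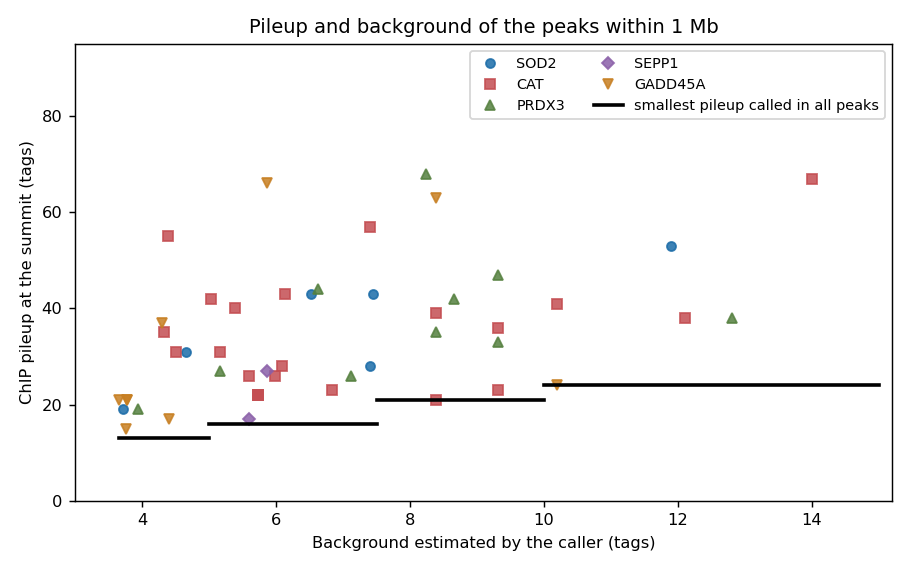
ChIP pileup at the summit against the background estimated by the caller, both in tags, for the 49 peaks within 1 Mb of the centre of a window, with 1 symbol per gene. Black lines mark the smallest pileup called in the whole list for backgrounds up to 5, 7.5, 10 and 15 tags (13, 16, 21 and 24 tags). The 49 peaks are part of that list, so all lie on or above the lines by construction.

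The nearest summit on each side shows how far the empty stretch around each window reached. GADD45A had the strongest neighbour. A peak of 585 bp on chromosome 1 from 68118464 to 68119048 (hg19) lay 21.2 kb below the lower edge of its window, with 66 tags over a background of 5.87. Its fold was 9.76, with an exact 95% Poisson interval from 7.58 to 12.4, which ranks 245 of 9717 peaks (2.52% of the list at or above it). Farther out, the peak spanning 68084078 to 68084829 was enriched 6.82-fold (interval 5.27 to 8.70), with 63 tags over 8.38. The 2 intervals overlapped, and the difference between the peaks was not tested. On the other side the first summit was 87 kb beyond the window, enriched 3.36-fold (1.98 to 5.41) with only 15 tags. GADD45A thus had 3 summits within 100 kb of its window centre, a number reached by 6.55% of 200 kb tiles. Its nearest protein-coding neighbours in RefSeq order are SERBP1 and GNG12, and which gene the strong peak belongs to was not analysed here.

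SOD2 had the closest neighbour of all, with a low pileup and a fold near the middle of the list. Since the window cannot hold all listed SOD2 starts, how far this peak lies from the nearest start, or whether it lies within the gene, is not known here. This peak, on chromosome 6 from 160137342 to 160137512, lay 12.4 kb above the upper edge of the window. It was 171 bp wide and enriched 4.23-fold (2.63 to 6.49), with 19 tags over 3.72, and this interval includes the list median of 3.88. On the lower side no summit was called for 1150.3 kb, up to a peak of fold 6.40 (4.89 to 8.22). All 6 summits within 1 Mb of the SOD2 window centre were therefore on its higher-coordinate side, where 4 had a −log10 q of 10 or more, against 25.5% of the whole list. The gap that held the SOD2 window was 1197.7 kb between neighbouring summits. Of all gaps, 4.82% were as long or longer, but these made up 41.1% of the span. FNDC1 and WTAP are the protein-coding genes beside SOD2 in RefSeq order.

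CAT had the most summits of the 5 genes within 1 Mb. Within 1 Mb of its window centre 22 summits were called, a number reached by 2.88% of 2 Mb tiles, and 10 of the 22 had a −log10 q of 10 or more. That share is for any single tile, while CAT was the highest of 5 genes at this distance. Within 500 kb CAT had 7 summits, fewer than the 9 of PRDX3, and within 250 kb it had 6, the most of the 5. The pair nearest to the gene lay on the lower side, each with 31 tags. The peak spanning 34402270 to 34402651 was 47.5 kb from the window and enriched 5.82-fold (4.01 to 8.19). The one beyond it, spanning 34392981 to 34393374, was enriched 5.19-fold (3.58 to 7.30). On the higher side the nearest summit was 139.6 kb away and enriched 3.06-fold (1.99 to 4.53). The strongest of the 22 was on chromosome 11 from 35035660 to 35036279, 559.0 kb from the window centre, where 55 tags over 4.38 gave an enrichment of 10.4-fold (7.88 to 13.5). ABTB2 and ELF5 are the protein-coding genes next to CAT in RefSeq order.

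PRDX3 was flanked at intermediate distances. On the higher side a peak from 121010185 to 121010422 on chromosome 10 lay 61.3 kb beyond the window, where 44 tags over 6.63 gave an enrichment of 5.90-fold (4.32 to 7.87). Close to it, the peak spanning 121013476 to 121013666 was enriched 4.45-fold (3.24 to 5.98). On the lower side the nearest was 150.5 kb away, and its 3.84-fold enrichment (2.71 to 5.30) was close to the list median. Of the 10 summits within 1 Mb, 4 had a −log10 q of 10 or more, and the highest fold was 7.47 (5.82 to 9.44). A count of 10 or more was found in 21.9% of 2 Mb tiles. SFXN4 and GRK5 are the adjacent protein-coding genes in RefSeq order.

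**Figure D2:**
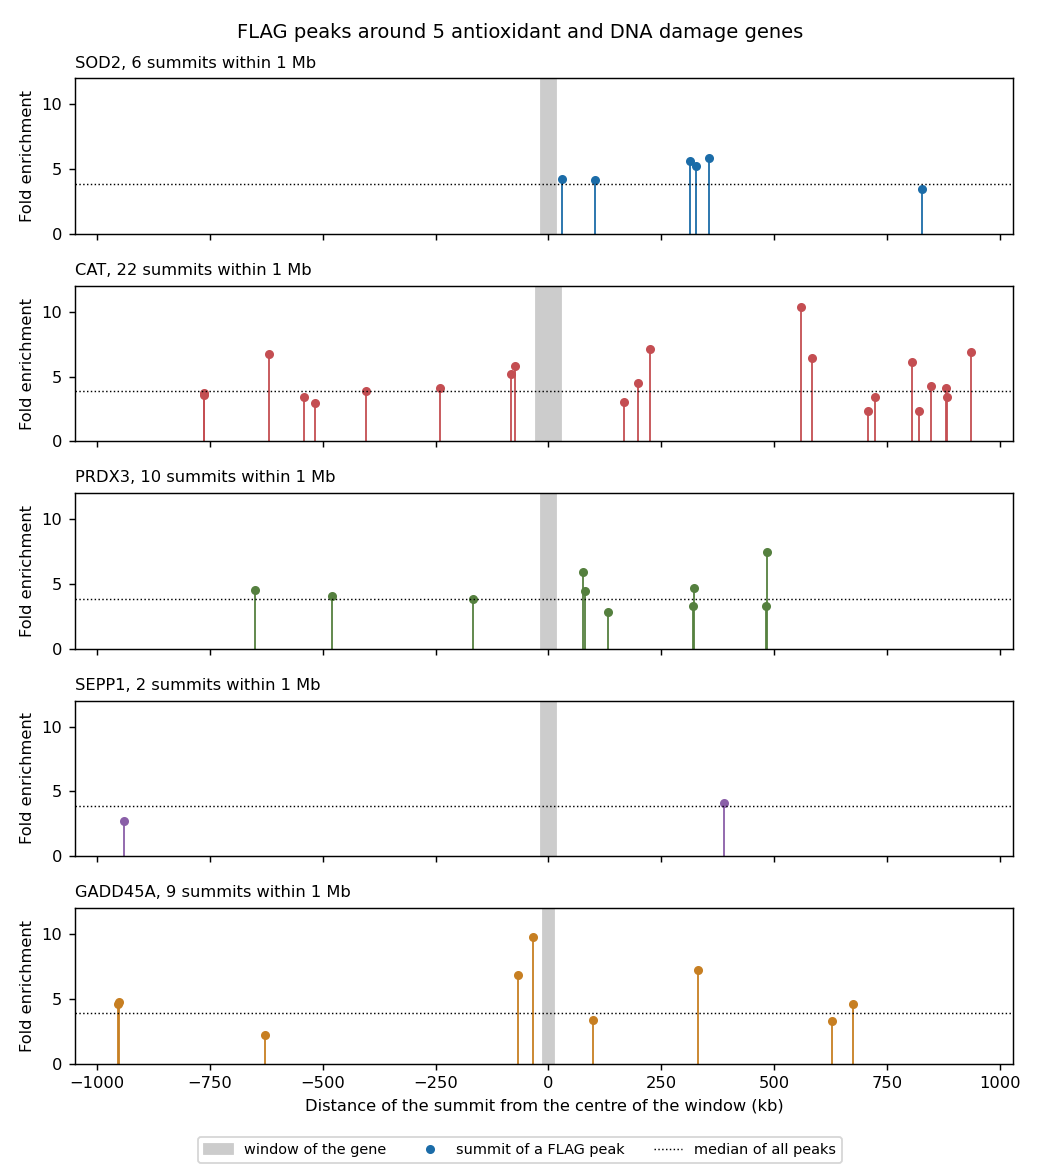
Fold enrichment of every FLAG peak against the distance of its summit from the centre of the window of the gene (kb), 1 panel per gene, with the window in grey and the median of all peaks (3.88) as a dotted line. No point falls in a grey band, the highest point near one is the GADD45A neighbour of fold 9.76, and the SEPP1 panel holds only 2 points.

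SEPP1 was the most isolated. No summit was called within 250 kb of its window centre, and only 2 were called within 1 Mb, a count as low or lower in 29.7% of 2 Mb tiles. The nearest was 372.1 kb above the window on chromosome 5, spanning 43193957 to 43194248 and enriched 4.08-fold (2.74 to 5.87), with 27 tags over a background of 5.87. The other was 924.6 kb below it and among the weakest of the list, enriched 2.73-fold (1.66 to 4.29) with 17 tags and ranking 9112 of 9717. The gap of 1329.8 kb was 13.4 times the median gap of 99.6 kb. Gaps as long made up 4.04% of all gaps but 37.9% of the span between the first and last summits of the chromosomes, so a position in such a gap is common. Of all the windows, that of SEPP1 lay farthest from any called peak, taking the nearer side. SEPP1 was also the only gene with a GTAAACA match among those with a promoter entry, which GADD45A lacked. Any link between the match and the distance was not tested. CCDC152 precedes SEPP1 in RefSeq order.

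**Figure D3:**
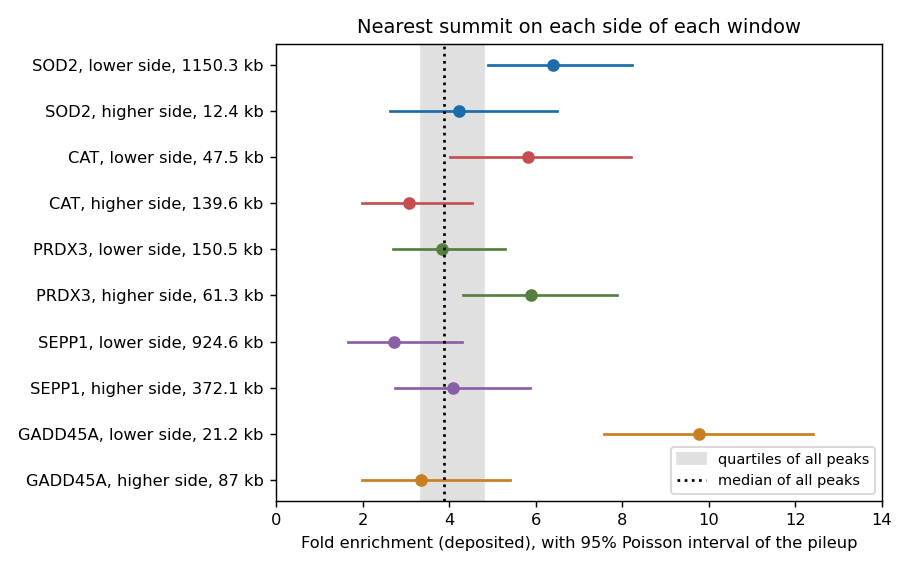
Deposited fold enrichment of the nearest summit on the lower- and higher-coordinate side of each window, with bars for the exact 95% Poisson interval of the pileup and the distance in kb from the window edge beside each name. The grey band marks the quartiles of all peaks (3.36 to 4.80) and the dotted line their median. The interval of the lower GADD45A neighbour, 7.58 to 12.4, lies wholly above the band.

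Taking the 10 neighbours as a set, their folds ran from 2.73 to 9.76 with a median of 4.16, beside 3.88 for all peaks. Folds of 5 or more were seen in 4 of the 10, against 22.1% of the list. They lay 21.2 kb from the window of GADD45A, 47.5 kb from that of CAT, 61.3 kb from that of PRDX3 and 1150.3 kb from that of SOD2. The closer neighbour of SOD2, at 12.4 kb, had a fold of 4.23. The same 4 peaks with a fold of 5 or more had a −log10 q of 10 or more. SEPP1 had no such neighbour on either side. These peaks were picked by position, and 10 peaks of 1 library are too few to set apart from the list.

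The neighbourhoods as a whole were not poor in peaks. Within 1 Mb of the 5 window centres lay 49 summits, where the mean density gives 33.3, and 21 of the 49 (42.9%) had a −log10 q of 10 or more. CAT accounted for 22 of the 49. The other 4 genes together had the remaining 27, where the mean density gives 26.6. Of these 27, 11 (40.7%) were that strong, and the share over the whole list was 25.5%. By gene, they were 4 of 6 around SOD2, 4 of 10 around PRDX3, 3 of 9 around GADD45A and 0 of 2 around SEPP1. Within 100 kb of the centre the counts were 1 for SOD2, 2 each for CAT and PRDX3, 0 for SEPP1 and 3 for GADD45A, beside 0.665 at the mean density. At least 1 summit was held by 35.7% of 200 kb tiles and at least 2 by 15.1%, so counts of 1 and 2 are not rare. Of 2 Mb tiles, 60.2% held no more than the 6 summits of SOD2, and 26.8% held at least the 9 of GADD45A. Summits cluster along chromosomes, so no error was put on these sums or shares, and no difference from the list was tested.

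**Figure D4:**
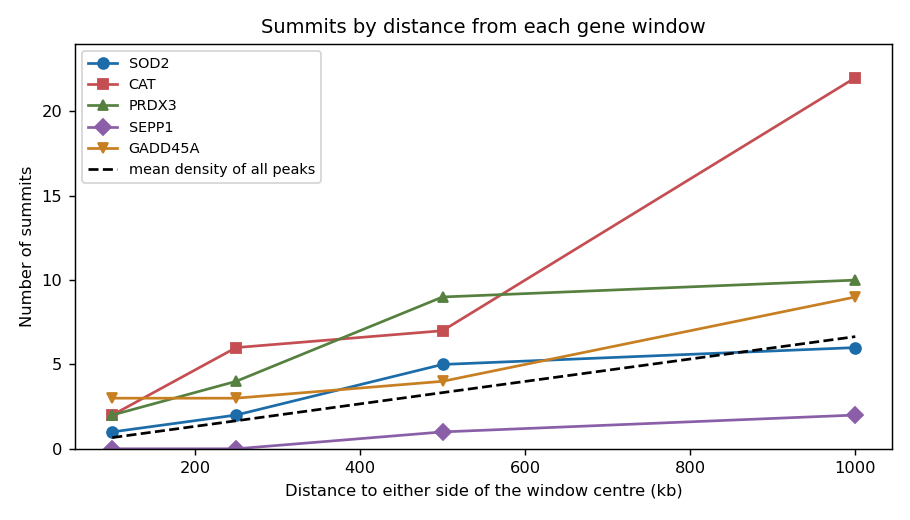
Number of FLAG summits within 100, 250, 500 and 1000 kb to either side of the centre of each window, with the number that the mean density of all peaks gives as a dashed line. SEPP1 stays below the line at each distance, and CAT reaches 22 summits at 1000 kb.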

How the data were processed

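One peak list was used, that of the FLAG library; the input library was not analysed here as a file of its own. Per the submitters' processing notes, reads were handled with Trimmomatic, HISAT2 and MACS2 on build hg19. For versions, parameters, control and read filters, nothing is stated in the labels. The deposited fold is a ratio of pileup to background. The deposited −log10 p-value and −log10 q-value belong to the summit. The deposited score is 10 times the −log10 q, cut to a whole number. Start, end and summit offset are other deposited columns, and starts are printed counting from 1. These per-peak values are the authors'.

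Pileup and background were solved from the fold, which adds 1 to both, and the Poisson tail, with a largest error of 0.0005 in −log10 p. The step was tested on simulated data. Exact 95% Poisson intervals of the pileup cover counting error only, since tags are not independent molecules. Python 3.11.15, SciPy 1.17.1 and pandas 2.3.3 were used. With 1 library no test was made. Peaks are numbered without a gap. Tiles lie end to end over the span of summits on each chromosome.

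The genes named were the 5 members with all peaks in their windows or the nearest summit on each side; further peaks within 1 Mb, and TXNRD2 and ATM, were named after their values were seen. Members, lists and motifs were chosen with earlier results of these data known. Alternatives were the summit or overlap rule, q and fold minimums, wider windows and merged peaks. The planned count of peaks at other pathway genes needs hg19 gene positions and was not run.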

Additional observations from a re-analysis of the deposited data

How the results depend on the processing

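The number of peaks, the number of genes with a peak and the density in the windows were recounted under other settings. This gave 16 values, most settings giving more than 1 of them, and 13 stayed at 0. The values from the same setting restate 1 count and are not separate checks. The settings that kept 0 were overlap in place of the summit, a −log10 q of at least 5 or 10, and a fold of at least 5. Windows wider by 10 kb on each side and merging of peaks within 500 bp kept it too. Since stricter minimums and merging cannot add a peak to 0, only overlap and wider windows could have changed it. With 50 kb added on each side the windows held 3 peaks in 3 genes, SOD2, CAT and GADD45A, at 4.42 per Mb. Tiles of those lengths hold a summit in 25.8% to 30.2% of cases. A change of background for the folds of peaks inside the windows had no peak to act on. It was applied, as a choice made after seeing the data, to the 10 nearest summits, and 6 folds moved beyond their intervals when the genome-wide background replaced the local one, upward by construction, such as from 9.76 to 14.4 below GADD45A. No paired analysis was possible because the FLAG library has no replicate. The smallest called pileup is a limit too, since no peak with under 13 tags was called anywhere. The smallest −log10 q in the list was 1.31. Read depth was not measured here, so its part in this limit is not known.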
